A study of Rattus norvegicus with 4 samples.

Results

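The miR-99/100 family of the rat consists of 3 microRNA hairpins, rno-mir-99a, rno-mir-99b and rno-mir-100, and its RNA was followed in exosomes, which are small vesicles shed by cells. Members were chosen by name: every tag (a distinct read sequence with its count) that the deposited files assign to 1 of these hairpins was taken, with copy numbers stripped from hairpin names, and counts were summed by hairpin arm and tag length. The 3 members are among 262 named hairpins with a tag in the 3 libraries that have tag counts. The family was picked because its members had been seen to differ between the groups in these same libraries, so the differences in level and in tag length between the groups are given as a description with no test.

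The study compared 2 kinds of exosomes from Sprague-Dawley rats with 2 libraries each. Exo-AT are vesicles shed by minced adipose tissue explants of rats aged 4 weeks, kept for 3 days in a spinner flask with 75 mL of α-MEM at 100 r/min. Exo-ADSCs are vesicles of adipose stem cells at passage 3, kept for 3 days in serum-free α-MEM. Both media held penicillin and streptomycin, the labels name no genetic change in either group, and they do not say whether a library came from 1 animal or culture or from a pool.

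The libraries are Exo-ADSCs1, Exo-ADSCs2, Exo-AT1 and Exo-AT2, the number being the replicate. Tag counts were used for Exo-ADSCs2 (715114 counts on hairpins, of which 97204 were on named miRNAs), Exo-AT1 (15200 and 9134) and Exo-AT2 (181049 and 136024). Exo-ADSCs values from tags therefore rest on 1 library, and those of Exo-AT1 on few reads, while Exo-ADSCs1 appears only in the authors' deposited table. Hairpins predicted by the authors took 86.4% of the counts of Exo-ADSCs2 against 39.9% and 24.9% in the Exo-AT libraries. Among named miRNAs, 44.7% of the counts of Exo-ADSCs2 were in tags of 20 to 25 nt, the length class that holds intact miRNAs, against 80.8% and 84.5% in Exo-AT. The labelled stem cells and tissue were checked against miRNA markers. A list of 5 mesenchymal miRNAs held 16.002% of the named counts in Exo-ADSCs2 and 19.9% and 13.4% in Exo-AT. This share was mostly miR-143-3p (15143, 1764 and 17539 counts in Exo-ADSCs2, Exo-AT1 and Exo-AT2). With the scaling used below, edgeR called 2 of the 5 (miR-143-3p and miR-214-3p) lower in Exo-AT at an adjusted p of 0.05, and 0 higher. Of the 183 miRNAs tested, 19.1% were called in each direction. A list of 4 erythroid miRNAs held 3.35% against 5.10% and 16.7%, with miR-144-5p at 0 in every library, and a list of 2 endothelial miRNAs held 0.0329% against 0.383% and 0.510%. Lists of 4 leukocyte miRNAs (0.0154% against 0.0438% and 0.0904%) and of 5 muscle miRNAs (0.0175% against 0.197% and 0.147%, with miR-1-3p and miR-133b-3p at 0 throughout) stayed below 1% of the counts. The shares of the last 4 lists were thus higher in both Exo-AT libraries, and their part in the values of the family was not tested. The erythroid share was mostly miR-486-5p (3200, 464 and 22521 counts in Exo-ADSCs2, Exo-AT1 and Exo-AT2). For miR-451-5p the counts were 55, 2 and 190, and with the scaling used below it was lower in Exo-AT1 than in Exo-ADSCs2. In Exo-AT1 the leukocyte share was 2 counts each of miR-142-5p and miR-150-5p, and the muscle share 18 counts of miR-1b-3p.

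A microRNA is cut from a hairpin precursor and guides an Argonaute protein to target messenger RNAs, chiefly through its seed, bases 2 to 8 from the 5′ end. miRNAs of the miR-99/100 family are best known for repressing the kinase gene Mtor and are encoded in clusters with members of the let-7 and miR-125 families. In vertebrates miR-100 and miR-99a are processed from long noncoding host transcripts, and miR-99b from a separate cluster.

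The precursors are shown first because they give the frame for every position below. In capitals is the 5p stretch of 22 bases that starts where the leading Exo-AT tag of each member starts. Each hairpin in the deposited files was identical to the RefSeq hairpin (assembly GRCr8), which places rno-mir-99a at chr11:29687392-29687472, rno-mir-99b at chr1:67350064-67350133 and rno-mir-100 at chr8:50798295-50798374, all on the plus strand.
rno-mir-99a: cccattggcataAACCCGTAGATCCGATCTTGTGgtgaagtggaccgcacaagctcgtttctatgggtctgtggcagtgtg
rno-mir-99b: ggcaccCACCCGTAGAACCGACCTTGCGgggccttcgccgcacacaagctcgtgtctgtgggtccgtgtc
rno-mir-100: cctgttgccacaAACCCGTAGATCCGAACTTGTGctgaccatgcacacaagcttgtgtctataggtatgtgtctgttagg

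The mature 5p forms that RefSeq lists for the family are printed with the seed in capitals.
rno-miR-99b-5p: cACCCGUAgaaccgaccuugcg
rno-miR-100-5p: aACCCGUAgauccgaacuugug
Both have the seed ACCCGUA, which no other of the 693 mature rat miRNAs in that table carries, and bases 2 to 8 of the leading rno-mir-99a tag are the same. Over the 22 positions, counted from 1 at the 5′ end of the mature form, miR-100 and miR-99a differ at 1 position (A16T, with the base of miR-100 given first). miR-100 and miR-99b differ at 4 positions (A1C, T11A, A16C and T21C). Position 16 is thus the only position that tells all 3 members apart, and a tag must reach it to be assigned to miR-99a rather than miR-100.

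The tag with the most counts of each member is shown for Exo-ADSCs and for Exo-AT, with position 16 in capitals, because these forms differ in length between the groups. The Exo-AT form was the leading one in both Exo-AT libraries.
miR-99a-5p in Exo-ADSCs: aacccgtagatccgaTct
miR-99a-5p in Exo-AT: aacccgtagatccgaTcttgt
miR-99b-5p in Exo-ADSCs: cacccgtagaaccgaCct
miR-99b-5p in Exo-AT: cacccgtagaaccgaCcttgc
miR-100-5p in Exo-ADSCs: aacccgtagatccgaAct
miR-100-5p in Exo-AT: aacccgtagatccgaActtgt
All 3 Exo-ADSCs forms have 18 bases and all 3 Exo-AT forms 21, and within a member the shorter form is the longer one without its last bases. The 18-base form held 66 of the 119 counts of miR-99a-5p in Exo-ADSCs2 (55.5%), 11855 of 21742 for miR-99b-5p (54.5%) and 5755 of 9989 for miR-100-5p (57.6%). In Exo-AT2 the 21-base form held 3415 of 5890 counts of miR-99a-5p (58.0%), 991 of 3371 for miR-99b-5p (29.4%) and 1263 of 2569 for miR-100-5p (49.2%).

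The members took opposite places in the vesicles of the stem cells and of the tissue. Levels are given as CPM with TMM scaling, that is, a miRNA's count relative to all named-miRNA counts of its library after edgeR's correction for composition. For miR-99a-5p the level was 1855 CPM in Exo-ADSCs2 (119 counts), 41814 in Exo-AT1 (529 counts) and 40065 in Exo-AT2 (5890 counts). Both Exo-AT libraries were far above the Exo-ADSCs library and close to each other. miR-99b-5p was at 338831 CPM in Exo-ADSCs2 (21742 counts) against 23081 and 22930 in the Exo-AT libraries (292 and 3371 counts). miR-100-5p was at 155670 CPM in Exo-ADSCs2 (9989 counts) against 18180 and 17475 (230 and 2569 counts). The last 2 members were thus higher in the Exo-ADSCs library than in either Exo-AT library, and for none of the 3 did the values of the groups overlap. Of the 183 named miRNAs that passed the filter on low counts, 39.3% were likewise higher in both Exo-AT libraries than in Exo-ADSCs2 and 37.7% lower in both, so an absence of overlap was common.

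**Figure D1:**
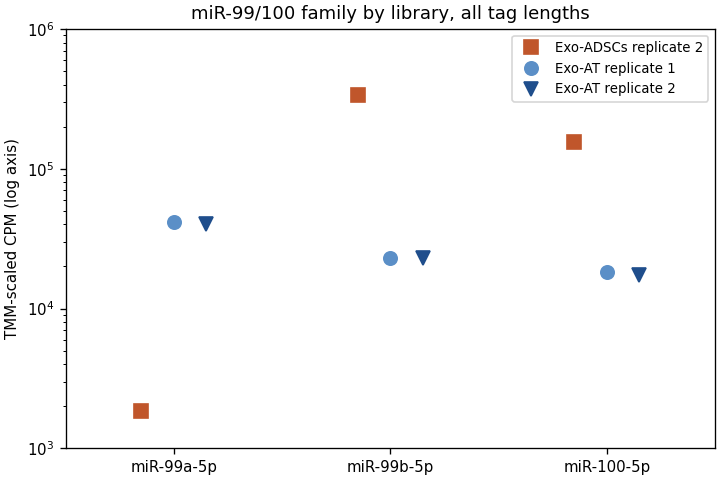
TMM-scaled CPM (log axis) of the 5p arm of each family member, with 1 point per library. miR-99a-5p is at 1855 in the Exo-ADSCs library and at 41814 and 40065 in the Exo-AT libraries, while miR-99b-5p and miR-100-5p are highest in the Exo-ADSCs library, at 338831 and 155670.

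On the log2 scale the fitted difference, Exo-AT over Exo-ADSCs, was 4.46 for miR-99a-5p with an SE of 0.36. It was -3.88 for miR-99b-5p and -3.13 for miR-100-5p, each with an SE of 0.25. The median over the 183 was 0.37, and of these 35 were called higher in Exo-AT (19.1%) and 35 lower (19.1%) by edgeR at an adjusted p of 0.05. This split became 46 higher and 19 lower with libraries scaled to total counts, and 107 and 5 with scaling to all counts on hairpins. Since these levels led to the choice of the family, its members are not counted among calls here. The size of these differences depends on which tags are counted. With tags of 20 to 25 nt only, they were 5.20, -0.44 and 0.35 for miR-99a-5p, miR-99b-5p and miR-100-5p (SE 0.41, 0.31 and 0.31). The sign of miR-100-5p thus changed, but its value was little above its SE. Without TMM factors miR-99b-5p was at 13098 CPM of these tags in Exo-ADSCs2 and at 19786 and 15579 in Exo-AT, so its sign here depends on the scaling. In tags under 20 nt, a split added after the data were seen, they were 2.61, -4.76 and -5.49. Scaling to all counts on hairpins, predicted ones included, was also added then and gave 7.66, -0.69 and 0.069 (SE 0.51, 0.33 and 0.33). miR-99a-5p was therefore above its Exo-ADSCs level in Exo-AT under each of these, whereas the differences of the other members were below 1 in size with tags of 20 to 25 nt and with scaling to all counts on hairpins.

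The rank of the members among named miRNAs showed the same exchange. miR-99b-5p was the most abundant named miRNA of Exo-ADSCs2 (rank 1), miR-100-5p had rank 5 and miR-99a-5p rank 41. In the Exo-AT libraries miR-99a-5p had ranks 4 and 5, miR-99b-5p ranks 7 and 6, and miR-100-5p rank 8 in both. Together the 3 members held 32.8% of the named counts in Exo-ADSCs2, 11.5% in Exo-AT1 and 8.70% in Exo-AT2. Among tags under 20 nt they held 57.6%, 16.4% and 14.5%, and among tags of 20 to 25 nt 2.32%, 10.3% and 7.63%. The family's place thus went opposite ways in the length classes: it was most abundant among the short tags of Exo-ADSCs and least abundant among their tags of 20 to 25 nt.

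The makeup of the family, which does not depend on the scaling between libraries, also differed. miR-99a-5p made up 0.374% of the family's 5p counts in Exo-ADSCs2 (Wilson 95% interval 0.312 to 0.447), 50.3% in Exo-AT1 and 49.8% in Exo-AT2. miR-99b-5p made up 68.3%, 27.8% and 28.5%, and miR-100-5p 31.4%, 21.9% and 21.7%. The ratio of miR-99a-5p to miR-100-5p, whose 5p forms differ by a base, was 0.0119 in Exo-ADSCs2 and 2.30 and 2.29 in Exo-AT. That of miR-99b-5p to miR-100-5p was 2.18 against 1.27 and 1.31 over all tags and 1.40 against 0.789 and 0.825 in tags of 20 to 25 nt. In tags under 20 nt it went the other way, with 2.21 in Exo-ADSCs2 and 3.24 and 3.97 in Exo-AT. Within tags of 20 to 25 nt miR-99a-5p still made up 3.18% of the family in Exo-ADSCs2 (32 of 1007 counts) and 56.6% and 54.8% in Exo-AT. The makeup of the 2 Exo-AT libraries agreed to within 1 percentage point for each member when all tags were counted, although their depths differ. Both files carry the same sample name inside, so this is not read as agreement of separate samples.

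**Figure D2:**
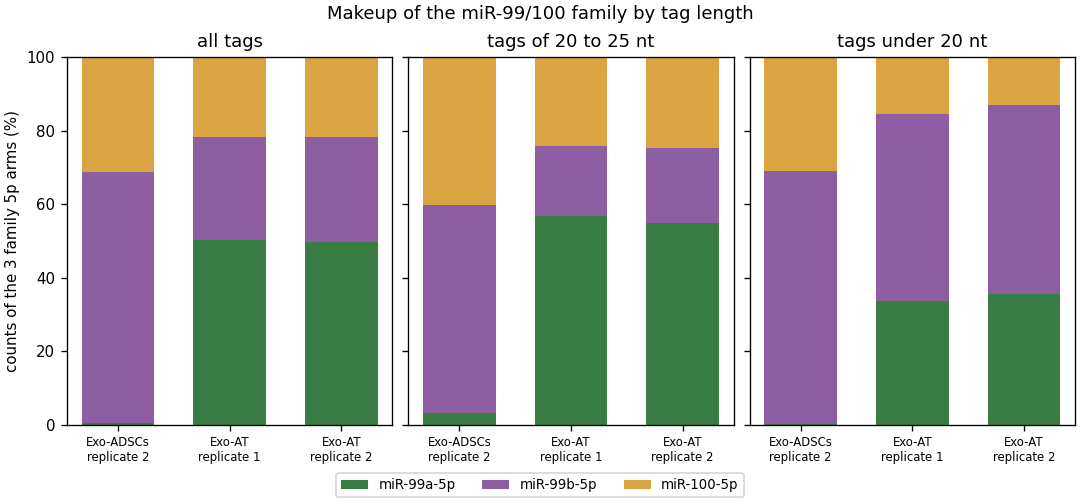
Percent of the family's 5p counts in each member, by library, for all tags, tags of 20 to 25 nt and tags under 20 nt. miR-99a-5p takes 49.8% to 50.3% of the Exo-AT bars and 0.374% of the Exo-ADSCs bar for all tags, and 3.18% of the latter among tags of 20 to 25 nt.

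The family's tags were shorter in Exo-ADSCs2 than in the tissue libraries. The mean tag length of miR-99a-5p was 18.8 nt in Exo-ADSCs2 and 20.4 and 20.5 nt in the Exo-AT libraries. For miR-99b-5p it was 17.6 against 19.2 and 19.3 nt, and for miR-100-5p 17.8 against 20.5 and 20.7 nt. Tags of 20 to 25 nt held 26.9% of the miR-99a-5p counts in Exo-ADSCs2 (Wilson 95% interval 19.7 to 35.5, from 119 counts) and 81.7% and 81.6% in Exo-AT. They held 2.62% of miR-99b-5p (2.41 to 2.84) against 146 of 292 counts in Exo-AT1 and 53.1% in Exo-AT2, and 4.06% of miR-100-5p (3.69 to 4.47) against 80.4% and 84.5%. Named miRNAs outside the family had 64.9% of their counts in this class in Exo-ADSCs2 and 81.9% and 85.5% in Exo-AT. miR-99b-5p thus differed from the other members in having many short tags in the tissue vesicles too.

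A set of 17 miRNAs had at least 50 counts in each library and could be ranked by this share. miR-99b-5p had the lowest and miR-100-5p the second lowest share in Exo-ADSCs2, miR-10a-5p and miR-10b-5p came next, and miR-99a-5p had rank 5, against a median of 70.3% over the 17. The difference between Exo-AT2 and Exo-ADSCs2 was 80.4 percentage points for miR-100-5p (rank 1 of 17), 54.7 for miR-99a-5p (rank 4) and 50.5 for miR-99b-5p (rank 6). miR-10b-5p and miR-148a-3p, outside the family, had ranks 2 and 3.

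The tags differed mainly at the 3′ end. In Exo-ADSCs2, tags whose last base was at position 18 held 64.7% of miR-99a-5p, 60.7% of miR-99b-5p and 66.1% of miR-100-5p. Tags ending at position 17 held 7.56%, 21.3% and 29.4%, those ending at position 21 held 17.6%, 1.28% and 2.98%, and 13.8% of miR-99b-5p ended at position 16. In Exo-AT the leading end was position 21, with 71.3% and 70.9% of miR-99a-5p, 39.7% and 40.8% of miR-99b-5p and 51.7% and 57.3% of miR-100-5p in replicates 1 and 2. The short tags of Exo-AT ended at position 17 more often than at 18: 15.7% and 15.5% against 1.89% and 1.53% for miR-99a-5p, 32.9% and 26.02% against 11.6% and 12.8% for miR-99b-5p, and 13.04% and 10.1% against 4.78% and 2.45% for miR-100-5p. Short tags thus ended mostly at position 18 in the stem cell vesicles and mostly at position 17 in the tissue vesicles, for each member.

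**Figure D3:**
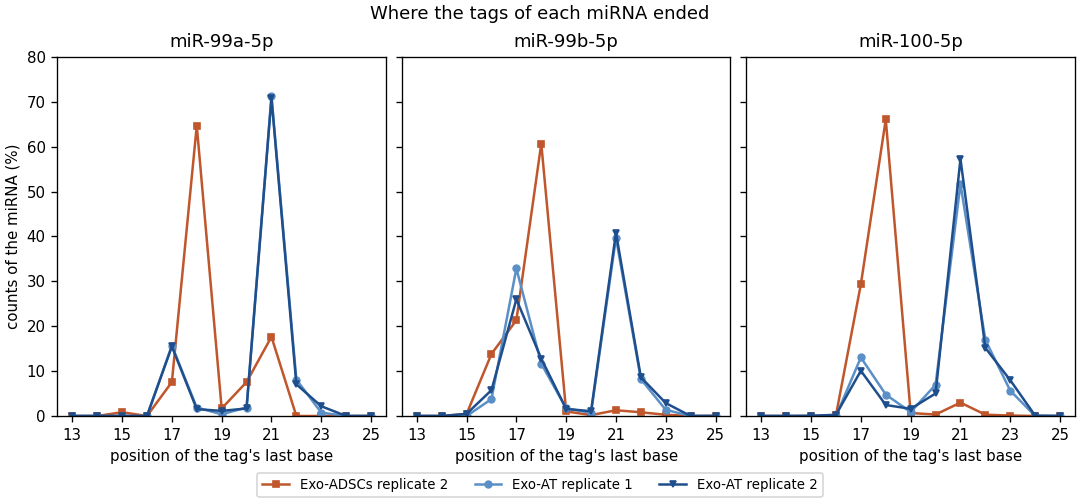
Percent of the counts of each miRNA by the position of a tag's last base, counted from 1 at the mature 5′ end, with 1 line per library. The Exo-ADSCs library peaks at position 18 for each member (60.7% to 66.1%), and both Exo-AT libraries peak at position 21 with a lower peak at position 17.

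The 5′ end, which sets the seed, varied less. Tags starting at position 1 held 88.2% of miR-99a-5p, 98.7% of miR-99b-5p and 94.5% of miR-100-5p in Exo-ADSCs2, 87.5%, 92.5% and 91.7% in Exo-AT1, and 86.2%, 87.8% and 86.7% in Exo-AT2. Tags with 1 extra base before an unchanged mature start held 10.7% of miR-99a-5p, 5.01% of miR-99b-5p and 7.47% of miR-100-5p in Exo-AT2. They held 8.88%, 1.37% and 3.91% in Exo-AT1, each lower than in Exo-AT2. In Exo-ADSCs2 such tags held 1.68%, 0.0184% and 0.0200% of these miRNAs.

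Every family 5p tag of Exo-AT1 was also in Exo-AT2, the deeper library. This overlap was not taken over all tags, and both files carry the same sample name inside. It is therefore not read as a trait of the family or as agreement of separate samples. Each of the 23 tags of miR-99a-5p in Exo-AT1 was among the 60 tags of Exo-AT2, as were all 17 tags of miR-99b-5p (of 65) and all 17 of miR-100-5p (of 41). Of the 13 tags of miR-99a-5p in Exo-ADSCs2, 5 were found in Exo-AT2. For miR-99b-5p this was 27 of 113, with 91.8% of its Exo-ADSCs counts, and for miR-100-5p 13 of 74, with 88.9%. Most of the family's reads in the stem cell vesicles were thus of sequences also seen in the tissue vesicles, in other proportions.

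Tags with no mismatch held 91.4% of the family's 5p counts in Exo-ADSCs2, 88.2% in Exo-AT1 and 82.7% in Exo-AT2. The remaining tags differed in kind. Mismatches inside a tag held 7.71% in Exo-ADSCs2 against 1.43% and 1.72%, and a mismatch at the tag's first base held 0.327% against 7.71% and 11.4%. A mismatch at the last base held 0.458% against 2.66% and 4.19%. In Exo-ADSCs2 the substitutions with the most counts were A15C in miR-99b-5p (500 counts, 2.30%), A11C in miR-99b-5p (430 counts, 1.98%) and A15C in miR-100-5p (281 counts, 2.81%). By share, T16C of miR-99a-5p was above these, with 11 of the 118 counts covering position 16 (9.32%). A tag with C there is 1 mismatch from both miR-99a and miR-100, and A16C of miR-100-5p also had 11 counts (0.110%). The 9.32% is therefore not a substitution rate of miR-99a alone. A C-to-A change at position 16 (C16A), which makes the miR-99b base there like that of miR-100, was in 1.28% of the miR-99b-5p tags covering it.

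Because miR-99a-5p was scarce in Exo-ADSCs2, its counts were checked for overlap with miR-100-5p. They came to 1.19% of those of miR-100-5p. Tags covering position 16 held 118 of the 119 miR-99a-5p counts, and 95 of them matched the miR-99a hairpin with no mismatch. Tags that the files also assign to another member held 13 counts (10.9%, Wilson 95% interval 6.50 to 17.8), and 11 counts had T16C, the base of neither miR-99a nor miR-100 but of miR-99b. An A-to-T change was in 0 of the miR-100-5p counts at each of positions 2, 8, 10 and 15, which allows a share of up to 0.0300%, and at no such position of miR-99b-5p was it above 0.0138%. These values cannot decide the matter, because a miR-100 read with T at position 16 is an exact miR-99a tag. Rates also varied by position: A to C was in 281 of 9989 miR-100-5p counts at position 15 and in 0 at position 2. How many of the 95 are such reads was not tested. In Exo-AT2 the shared tags held 0.153% of miR-99a-5p and 0.350% of miR-100-5p, and in Exo-AT1 none.

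The 3p arms, the opposite strands of the precursors, were rare in all libraries. RefSeq lists them as follows, with bases 2 to 8 in capitals. They are shown because the 3p seeds of miR-99a and miR-99b are the same and that of miR-100 is not.
rno-miR-99a-3p: cAAGCUCGuuucuaugggucug
rno-miR-99b-3p: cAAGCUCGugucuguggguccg
rno-miR-100-3p: cAAGCUUGugucuauaggu
The 3p arm of miR-99b had 7 counts in Exo-ADSCs2 (0.0322% of the counts of both arms), 0 in Exo-AT1, which allows a share of up to 1.03%, and 22 in Exo-AT2 (0.648%, Wilson 95% interval 0.429 to 0.980). Its log2 difference was 0.053 with an SE of 1.77, so these few counts leave its direction undetermined. The 3p arm of miR-99a had 4 counts in Exo-ADSCs2 (3.25% of both arms) and 0 in each Exo-AT library, which allows up to 0.567% and 0.0509%. For miR-100 there were 0 counts in Exo-ADSCs2 and Exo-AT1, which allows up to 0.0300% and 1.30%, and the 5 counts of Exo-AT2 were in a mismatched tag of 15 nt.

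Each member has a let-7 and a miR-125 hairpin near it in the RefSeq annotation (GRCr8). Mir99a lies 639 bp from Mirlet7c1 and 45099 bp from Mir125b2 on chromosome 11. Mir100 lies 6828 bp from Mirlet7a-2 and 51661 bp from Mir125b1 on chromosome 8, within Mir100hgl, its host gene. Mir99b lies 95 bp from Mirlet7e and 541 bp from Mir125a on chromosome 1, within Spaca6. miRNAs of a cluster can be cut from 1 transcript, so their levels were set beside those of the family.

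Of 10 neighbour miRNA forms, 7 passed the filter on low counts, of which 1 was called higher in Exo-AT and 2 lower, against 19.1% of the 183 tested called in each direction, and 4 were not called. The 3 calls of 7 are thus near the background. All counts of let-7a-3p, 1 of the 2 lower calls, are assigned to rno-let-7a-1, which is not the copy beside miR-100, so 1 lower call (let-7a-5p) is left for a hairpin at these clusters. The median log2 difference of the 7 was -0.43 against 0.37 over all 183.

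Near miR-99a, let-7c-5p, summed over its copies, was at 2930 CPM in Exo-ADSCs2 and at 2213 and 1714 in Exo-AT. The files assign 96, 14 and 134 of these counts to rno-let-7c-1, the copy beside miR-99a, and 92, 14 and 118 to rno-let-7c-2. The copies thus have similar counts in each library, and this split is not read as the output of either copy. In each library, part of the let-7c-5p counts was in tags that the files also assign to another hairpin name. The log2 difference of let-7c-5p over both copies was -0.61 (SE 0.44, adjusted p 0.284 by edgeR), against 4.46 for miR-99a-5p. miR-125b-5p, which the files cannot divide between its copies beside miR-99a and beside miR-100, was at 468 CPM against 3636 and 3034. It was called higher in Exo-AT (log2 difference 2.82, SE 0.52, adjusted p 1.70e-06 by edgeR), from 30, 46 and 446 counts. miR-125b-3p, whose copies differ, had 10 counts from the copy beside miR-100 and 4 from that beside miR-99a in Exo-ADSCs2, and 0 against 3 and 0 against 20 in Exo-AT. These few counts, from which no difference was called (adjusted p 0.841 by edgeR over both copies), lay on the miR-99a side in both Exo-AT libraries.

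Near miR-100, let-7a-5p was at 170537 CPM in Exo-ADSCs2 and at 2529 and 3966 in Exo-AT, a log2 difference of -5.67 (SE 0.28, adjusted p 8.63e-47 by edgeR). A share of 73.3% of its 10943 Exo-ADSCs counts was in tags with 3 extra bases before the mature start, against 0 of 32 and 0 of 583 counts in Exo-AT, which allows up to 9.38% and 0.515%. Without these tags the difference was -3.77 (adjusted p 1.58e-26 by edgeR, a setting chosen once the data had been seen). let-7a-5p is also made from rno-let-7a-1: of its Exo-ADSCs2 counts the files assign 9382 to rno-let-7a-2, the copy beside miR-100, and 1561 to rno-let-7a-1. In Exo-AT the same copies have near equal counts, 16 and 16 in Exo-AT1 and 288 and 295 in Exo-AT2. The tags with 3 extra bases held 8026 counts in Exo-ADSCs2, far more than the 1561 of rno-let-7a-1, so most of them were on rno-let-7a-2. The uneven split of Exo-ADSCs2 is therefore not read as the output of either copy. How its other let-7a-5p tags divide between the copies was not tested. No count of let-7a-3p was assigned to rno-let-7a-2. From rno-let-7a-1 its 32, 0 and 6 counts gave a log2 difference of -3.77 (adjusted p 0.0208 by edgeR), a call lost under 4 of the other settings. All 6 counts of Exo-AT2 were in tags also assigned to another hairpin, and with tags of 1 hairpin name the difference was -8.37. Of the 32 counts of Exo-ADSCs2, 0% were in tags of 20 to 25 nt. let-7a-3p was not tested with those tags, with tags that have no mismatch or with scaling to all counts on hairpins.

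Near miR-99b, neither 5p neighbour was called with TMM scaling. let-7e-5p was at 249 CPM in Exo-ADSCs2 and at 395 and 102 in Exo-AT, from 16, 5 and 15 counts (log2 difference -0.43, adjusted p 0.821 by edgeR). miR-125a-5p was at 156 against 474 and 524 CPM (log2 difference 1.69, adjusted p 0.206 by edgeR), from 10, 6 and 77 counts. With scaling to all counts on hairpins, miR-125a-5p was called higher in Exo-AT (log2 difference 4.85, adjusted p 3.26e-06 by edgeR). In the authors' deposited table, which lists miRNAs raised in Exo-AT, miR-125a-5p has 419 and 185 in Exo-AT1 and Exo-AT2 and 92 and 14 in Exo-ADSCs1 and Exo-ADSCs2. miR-99b-5p itself had 21742 counts in Exo-ADSCs2, so the 3 products of this cluster stood at very unequal counts in that library.

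**Figure D4:**
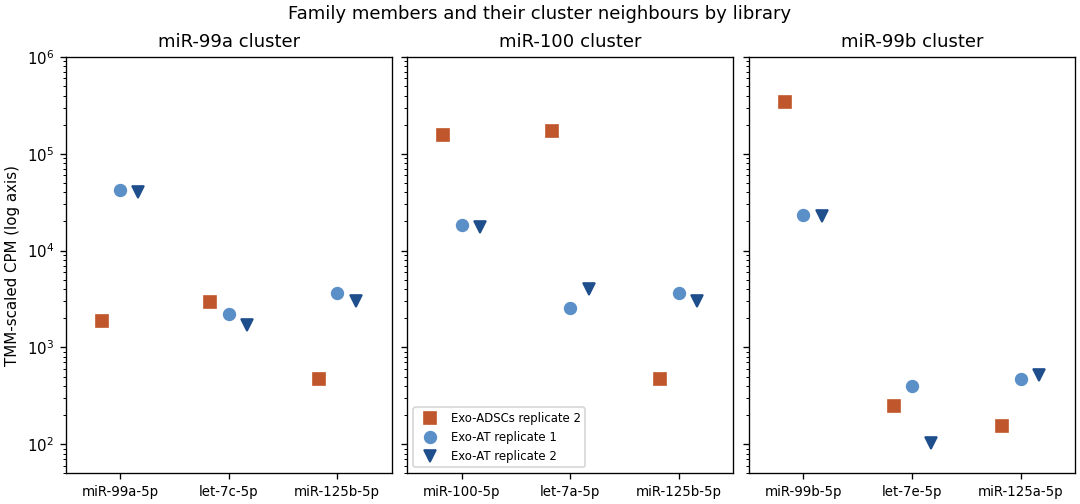
TMM-scaled CPM (log axis) of each family member and of the 5p arms of its cluster neighbours, with 1 point per library. Values of let-7a-5p, let-7c-5p and miR-125b-5p are summed over their copies, of which only some lie in the cluster shown. In the miR-100 panel both miR-100-5p and let-7a-5p are highest in the Exo-ADSCs library, while let-7c-5p in the miR-99a panel is at 2930 there and at 2213 and 1714 in Exo-AT.

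The miRNAs whose profile over the 3 libraries was most like that of each member were found among the 182 others tested, by Euclidean distance between centred log2 values (CPM plus 1). With 3 points per profile this is a description. The nearest to miR-99a-5p were miR-1b-3p (distance 0.286), miR-450b-5p (0.454) and miR-542-3p (0.576). miR-1b-3p, of a muscle miRNA family, was at 46.8 CPM in Exo-ADSCs2 and at 1423 and 1204 in Exo-AT, on 3, 18 and 177 counts. Nearest to miR-99b-5p were miR-203a-3p (0.225), miR-22-3p (0.257) and miR-214-3p (0.294), and nearest to miR-100-5p were miR-22-3p (0.548), miR-203a-3p (0.581) and miR-192-5p (0.605). In Exo-ADSCs2, Exo-AT1 and Exo-AT2, miR-203a-3p had 191, 3 and 28 counts and miR-214-3p 100, 1 and 14. Their Exo-AT1 values are thus not above the 3 counts that a 0 allows. miR-22-3p had 1487, 20 and 287 counts and miR-192-5p 171, 7 and 52. The distance between miR-99b-5p and miR-100-5p was 0.617, whereas miR-99a-5p was 6.81 from miR-99b-5p and 6.20 from miR-100-5p.

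The authors' deposited table lists 45 miRNAs that they report as raised in Exo-AT, with values headed as normalized reads for all 4 libraries. Of the family only miR-99a-5p is in it. In the authors' deposited table it has 23 and 768 in Exo-ADSCs replicates 1 and 2 and 1996 and 32034 in Exo-AT replicates 1 and 2. The groups do not overlap, but a list of miRNAs picked as raised in Exo-AT favours this, so it adds no support for the difference. Within each group replicate 2 is far above replicate 1. In the authors' deposited table the ratio of replicate 2 to replicate 1 is 16.05 in Exo-AT and 33.4 in Exo-ADSCs, for both the highest of the 45 entries, against medians of 0.424 and 0.389. In the tag files the ratio of the CPM of miR-99a-5p (scaled to named-miRNA counts, with no TMM factor) in Exo-AT2 to that in replicate 1 was 0.748, from 43301 and 57916. The table and the tag files thus give miR-99a-5p opposite orders of the 2 Exo-AT libraries, and the factor behind the table's values is not given in the sources used here.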

How the data were processed

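Small RNA libraries (inserts of about 15 to 35 nt) were sequenced for 36 cycles, per the labels' protocols. Per the file headers, the tag files hold whole-number counts that the authors made for each distinct read sequence on a hairpin, with Novoalign 2.07.11 and the rn6 build listed in the submitters' processing notes. How adaptors were trimmed, and which miRNA release was used, is not given in the sources used here. In the table of the whole series the authors deposited a normalized value, a score here since its factor is not stated.

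Tags on named hairpins were given an arm by their midpoint, genomic copies were summed, and predicted hairpins were left out of scaling and tests. Counts were tested with edgeR 4.0.16 (quasi-likelihood, two-sided, TMM factors 0.664, 1.39 and 1.08 in the order Exo-ADSCs replicate 2, Exo-AT replicates 1 and 2, default expression filter with a minimum count of 10) in R 4.3.3. The filter kept 183 of 348 miRNAs, with Benjamini-Hochberg adjustment over those 183. The lone Exo-ADSCs library was assumed to vary like the Exo-AT libraries, with 1 residual degree of freedom. Nothing says that replicates came from separate animals or cultures, and the Exo-AT tag files carry the same sample name inside, so the p-values speak only of the spread between these libraries, and that spread may be technical. The Exo-AT libraries differed beyond sampling noise (chi-square 1723 on 182 degrees of freedom) and were counted as 2. That chi-square takes each read as independent and cannot show whether the libraries are separate samples. The procedure was run on simulated data drawn with the same spread for every library. That run cannot check the assumption about the lone Exo-ADSCs library. A count of 0 allows 3 counts, which is 30.9, 328 and 22.1 CPM in the libraries. Reads carry no molecular identifiers, so Wilson 95% intervals and these floors cover counting error only. In bulk vesicle RNA, fewer vesicles of a source and less RNA per vesicle cannot be told apart. The summary file of Exo-ADSCs replicate 1 was not used.

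The members, lists and alternatives were chosen with earlier results of these data known. Named were all arms of the members, their cluster neighbours, the 3 miRNAs nearest in profile to each member and the members' entries in the deposited table. Alternatives covered scaling, the filter, DESeq2 1.42.0, tag length, mismatches, tags of 1 hairpin name and each Exo-AT library left out.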

Additional observations from a re-analysis of the deposited data

How the results depend on the processing

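The log2 differences of miR-99a-5p, miR-99b-5p and miR-100-5p (4.46, -3.88 and -3.13) moved by more than the small SD between the Exo-AT libraries under most settings. They were 5.36, -2.99 and -2.23 with total-count scaling, 4.21, -4.14 and -3.38 with DESeq2 size factors, 4.59, -3.96 and -3.22 with tags that have no mismatch or indel, and 4.42, -4.09 and -3.34 with tags assigned to 1 hairpin name. Without the filter on low counts they were 4.50, -3.84 and -3.08. With tags of 20 to 25 nt they were 5.20, -0.44 and 0.35, with tags under 20 nt 2.61, -4.76 and -5.49, and with scaling to all counts on hairpins 7.66, -0.69 and 0.069. The sign of miR-100-5p was thus reversed with tags of 20 to 25 nt and with the last scaling, at values little above or below their SE (0.31 and 0.33). The cause was not tested beyond the tags and totals these settings use. Leaving out Exo-AT replicate 1 or 2 gave 4.43 to 4.64, -3.88 to -3.72 and -3.15 to -2.95, as values with no test, since 1 library per group was left. The 35 higher and 35 lower calls became 46 and 19 when libraries were scaled to total counts, 23 and 30 with size factors from DESeq2, 22 and 21 with DESeq2's own test, and 107 and 5 with scaling to all counts on hairpins. The share of tags of 20 to 25 nt became, with the class narrowed to 21 to 23 nt, 15.1%, 2.24% and 3.57% for miR-99a-5p, miR-99b-5p and miR-100-5p in Exo-ADSCs (from 26.9%, 2.62% and 4.06%) and 78.9%, 47.2% and 75.8% in Exo-AT (from means of 81.6%, 51.6% and 82.5%). With tags that have no mismatch it was 2.28% and 3.44% for the latter pair in Exo-ADSCs and 80.7% for miR-99a-5p in Exo-AT. Among neighbours, let-7c-5p was reversed with total-count scaling (0.28), with scaling to all counts on hairpins (2.59) and in tags under 20 nt (1.39), let-7e-5p with both scalings (0.47 and 2.73), and miR-125b-3p likewise (0.42 and 2.74). miR-125a-5p was called higher with scaling to all counts on hairpins (4.85). let-7c-5p was called lower with tags of 20 to 25 nt (-1.61), and let-7a-5p lost its call in tags under 20 nt (-0.65). Over the settings the median of all miRNAs tested went from -0.35 to 3.88, and was 1.21 with total-count scaling. No paired analysis was possible because only 1 Exo-ADSCs library has tag counts, so the groups share fewer than 2 replicate numbers. Depth limits Exo-AT replicate 1 most, with 9134 named counts, and miR-99a-5p in Exo-ADSCs, with 119.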

Other observations

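Some tags of the family in Exo-ADSCs replicate 2 carried exactly 3 extra bases before the mature start, and these bases came in few forms. Of 31850 family 5p counts, 99 were such tags, with ACG in 64, GTA in 18 and CAT in 17. They held 9 of 119 counts of miR-99a-5p (7.56%), 32 of 21742 of miR-99b-5p (0.147%) and 58 of 9989 of miR-100-5p (0.581%). Exo-AT replicate 1 had 0 such tags among 1051 family counts, which allows a share of up to 0.285%, and Exo-AT replicate 2 had 0 among 11830, which allows up to 0.0254%. The tags of let-7a-5p with 3 extra bases in Exo-ADSCs replicate 2 mostly began with GAC (7777 of 8026 counts).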
